A study of Mus musculus with 2 samples.

Results

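The genes described here are the Kv1 potassium channel genes and their partners: the pore subunit genes Kcna1, Kcna2, Kcna3, Kcna4 and Kcna6, the beta subunit genes Kcnab1, Kcnab2 and Kcnab3, and the genes of the secreted ligand Lgi1 and its receptor Adam22. They were taken by symbol from the count tables, and all 10 were found among 32531 gene symbols. The study has 1 group with 2 libraries (replicates 1 and 2): ribosome-bound RNA pulled down with anti-EGFP antibodies from the dentate gyrus of untreated adult mice of the TRAP line Lypd1-EGFP/Rpl10a (OI82). TRAP, translating ribosome affinity purification, captures ribosomes through a tagged ribosomal protein, here Rpl10a fused to EGFP. The tag is expressed in the cells where the Lypd1 regulatory sequence of this 1 line is active. Sex and the number of animals behind each library are not given in the labels, so the spread between the libraries may be partly technical. Each value is a level within the purified RNA, since an input or untagged library was not analysed here.

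Kv1 channels are voltage-gated potassium channels whose pore subunits assemble as tetramers. They open close to the threshold of the action potential, sit mainly on axons and terminals, and limit firing and transmitter release. Beta subunits bind the cytoplasmic face of the pore subunits, and some of them close the channel quickly after it opens. LGI1 is secreted by neurons and binds ADAM22 and ADAM23, membrane proteins that link it to synaptic and axonal scaffolds, and it is known as a gene of inherited epilepsy. In the dentate gyrus, Kv1 channels are known from the axons of granule cells, the mossy fibres, and their boutons.

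The 5 pore subunit genes are paralogs, and the stretch around the selectivity filter shows how far their coding sequences still differ. The lines give the bases that encode this part of the pore, from GENCODE M21 transcripts (GRCm38), with the 18 bases of the potassium channel signature in capitals.
Kcna1: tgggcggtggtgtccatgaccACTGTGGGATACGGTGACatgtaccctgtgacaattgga
Kcna2: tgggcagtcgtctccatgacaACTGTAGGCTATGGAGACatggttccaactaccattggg
Kcna3: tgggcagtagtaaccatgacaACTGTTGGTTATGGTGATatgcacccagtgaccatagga
Kcna4: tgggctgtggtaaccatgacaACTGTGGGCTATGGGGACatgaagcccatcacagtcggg
Kcna6: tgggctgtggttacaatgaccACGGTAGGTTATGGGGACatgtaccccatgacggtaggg

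Of these 60 bases, Kcna2 shared 43 with Kcna1, Kcna3 shared 47, and Kcna4 and Kcna6 each shared 45. Even in the capitals, whose protein is the same in all 5, only 13 to 15 of the 18 bases of the other genes matched Kcna1. Over the aligned coding sequences, identity ran from 70.2% (Kcna3 with Kcna4) to 77.1% (Kcna1 with Kcna3). No 50-base window of the Kcna1, Kcna4 or Adam22 transcripts occurred in an annotated transcript of another gene, on either strand. Among the other members the shared part was highest in Kcnab2, at 1.33%, apart from Kcna6 and Lgi1. In Kcna6, 38.8% of windows also lay in Gm26673, an antisense transcript that overlaps 2355 bases of its exons, and the strand setting of the counting is not given in the sources used here. Within this overlap, reads of Kcna6 and of the antisense RNA cannot be told apart. Gm26673 is not among the gene symbols of the counts, so counting without regard to strand could add its reads to Kcna6. In Lgi1, 12.9% of windows occurred in transcripts of 639 other genes, and such reads can fall in the class of non-unique alignments, which held 15.7% of all counts in replicate 1 and 15.5% in replicate 2.

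All 10 members were detected, at 1 or more counts per 1000000 counts on gene lines (CPM) in both libraries, where 56.2% of 20391 protein-coding symbols were. At 100 CPM or more in both libraries stood 5 of the 10, namely Kcna1, Kcna2, Kcnab2, Lgi1 and Adam22, against 9.49% of protein-coding symbols. The libraries held 31309643 and 32711412 counts on genes, so 3 counts, the limit that a count of 0 allows, corresponded to 0.0958 and 0.0917 CPM, and even Kcna3 rested on 67 and 80 counts. Intervals and limits cover counting error only.

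Markers of cell types were read in the purified RNA. Their lists were chosen with earlier results of these data known, so they are no independent check of the labelled cells. The lists differ in length, and some sums rest mainly on few genes, so the sums do not rank cell types. All 9 granule cell markers were detected, and their levels summed to 4235 CPM (replicate 1) and 4211 CPM (replicate 2). The microglial sum was 2.24 and 2.14 CPM, with C1qa and C1qb at 0 counts, and no member of that list was detected. Other sums were lower than that of granule cells but differed between the libraries: 58.9 and 35.7 CPM for mossy cells (3 of 5 detected), 115 and 81.9 CPM for CA1 pyramidal cells (4 of 4), 36.6 and 29.3 CPM for CA3 pyramidal cells (4 of 5), 76.6 and 125 CPM for interneurons (3 of 8), 61.0 and 86.5 CPM for astrocytes (5 of 6) and 189.8 and 143 CPM for oligodendrocytes (6 of 6). Oligodendrocyte precursors (7.51 and 18.1 CPM, 3 of 3) and endothelial cells (15.1 and 16.6 CPM, 3 of 4) were lower. Outside the microglial list no marker had 0 counts in both libraries. The part of these cells in the levels of the Kv1 genes was not tested. Fewer cells of a type, less tag or RNA per cell, and less carry-over from untagged cells cannot be told apart in these pull-downs.

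**Figure D1:**
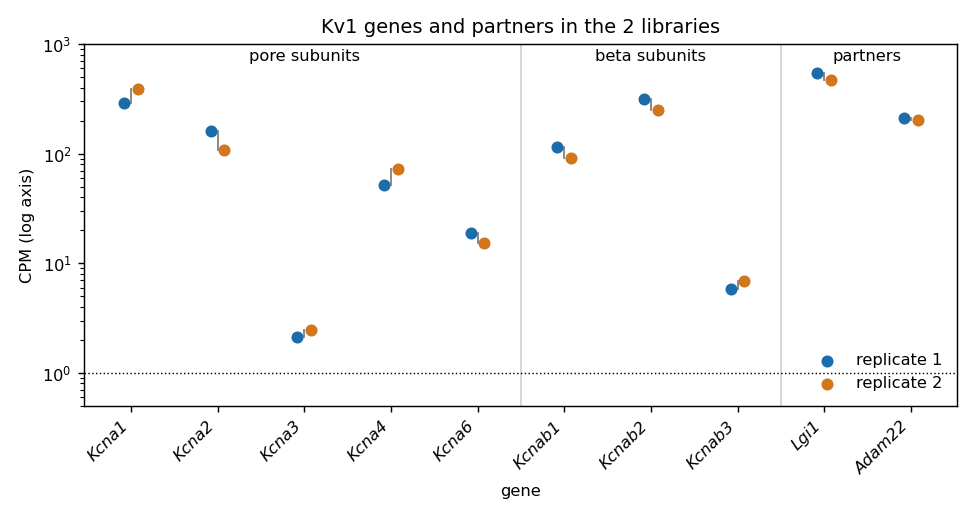
Level of each gene in CPM (log axis) in replicate 1 and replicate 2, grouped into pore subunits, beta subunits and partners, with a dotted line at 1 CPM. The 2 points of a gene lie close together beside the range from Kcna3 (2.14 and 2.45 CPM) to Lgi1 (540.0 and 471 CPM), while Kcna1 and Kcna4 are higher in replicate 2 and Kcna2 is lower.

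Kcna1 was the leading pore subunit gene. It encodes Kv1.1, a subunit with a low activation threshold, and lies on chromosome 6 (126640397 to 126646384, minus strand, GRCm38). Its level was 292 CPM in replicate 1 and 386 CPM in replicate 2 (339 ± 66.0 CPM, SD, n = 2), from 9156 and 12620 counts. Kcna2, the gene of Kv1.2, which often joins Kv1.1 in axonal channels, lies on chromosome 3 (107101146 to 107115005, plus strand). It stood at 161 and 108 CPM (135 ± 37.6 CPM). The library with more Kcna1 thus had less Kcna2.

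Kcna4 encodes Kv1.4, the pore subunit of this family that carries its own inactivating N-terminus, on chromosome 2 (107290639 to 107298502, plus strand). Its levels were 51.8 and 72.8 CPM (62.3 ± 14.9 CPM). Kcna6, the gene of Kv1.6, on chromosome 6 (126708329 to 126740674, minus strand), was at 18.8 and 15.3 CPM (17.0 ± 2.47 CPM), with the antisense overlap given above. Kcna3, the gene of Kv1.3, a channel best known from lymphocytes and microglia, lies on chromosome 3 (107036169 to 107038070, plus strand). It was the lowest member by count and by length-corrected level, with 2.14 and 2.45 CPM (2.29 ± 0.216 CPM). Kcna4 was higher in replicate 2 and Kcna6 lower, and the Kcna3 levels differed by less than their counting error.

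The remaining Kv1 pore genes had few or no counts. Kcna5, the gene of Kv1.5, had 86 counts in replicate 1 and 22 in replicate 2 (2.75 and 0.673 CPM). Kcna7 had 0 and 1 counts, and Kcna10 had 0 counts in both. None of these 3 genes passed 1 CPM in both libraries.

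Levels of different genes were compared after division by exon length, as CPM per kilobase of the union of exons. On that scale Kcna1 was at 61.2 and 80.7 CPM per kilobase (70.9 ± 13.8), rank 441 of 20391 protein-coding genes. Kcna4 followed at 10.7 and 15.1 (12.9 ± 3.08) and Kcna2 at 13.5 and 9.08 (11.3 ± 3.16), and the ranges of these 2 genes overlapped. Kcna6 was at 3.16 and 2.57 (2.87 ± 0.416) and Kcna3 at 1.13 and 1.29 (1.21 ± 0.114). Kcna1 lay above Kcna4 and Kcna2 in both libraries, and Kcna6 and Kcna3 below them.

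As shares of the 5 summed per-kilobase levels, Kcna1 took 68.2% in replicate 1 and 74.2% in replicate 2 (71.2 ± 4.28%). Kcna4 took 11.9% and 13.9%, Kcna2 15.1% and 8.35%, Kcna6 3.52% and 2.36%, and Kcna3 1.25% and 1.18%. The share of Kcna2 depends on the length used, because 11.9 kb of exon are annotated for it against 4.78 kb for Kcna1, while the coding lengths are nearly equal (1497 and 1485 bases). Per kilobase of coding sequence, Kcna2 took 31.3% and 19.0% of the sum, above Kcna4 with 7.67% and 9.76%, so the order of these genes turned. Kcna1 led in both libraries under each of the 4 lengths and with no length correction. Its smallest share was 55.6%, in replicate 1 with no length correction. How much of the annotated exon length the authors counted over is not given in the sources used here.

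**Figure D2:**
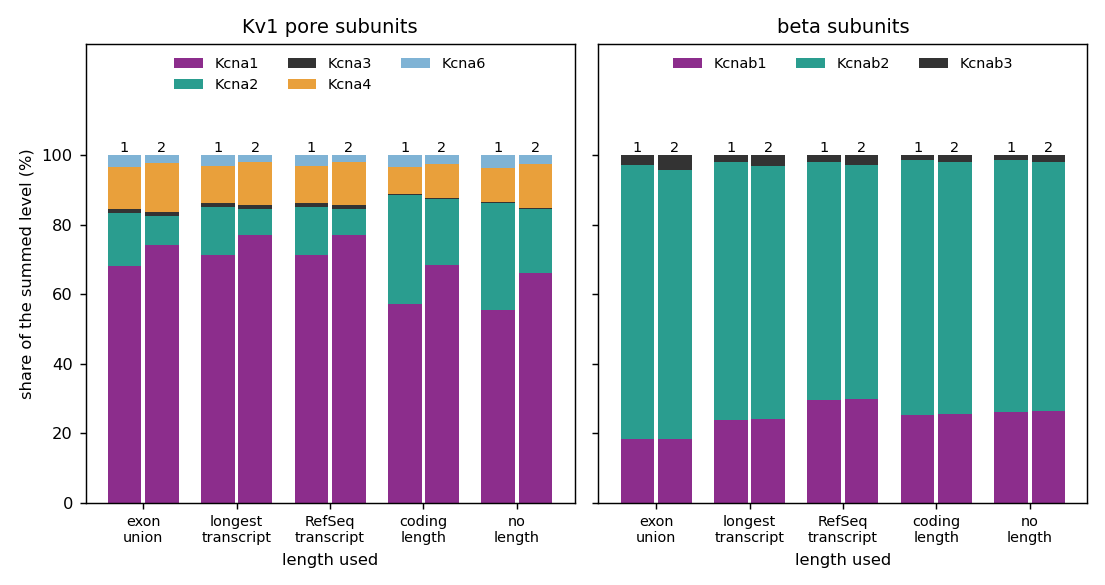
Share of each gene in the summed level of the Kv1 pore subunits (left) and of the beta subunits (right), in percent, for replicate 1 and replicate 2 (numbers above the bars), with 4 gene lengths and with no length correction. Kcna1 and Kcnab2 are the largest segments in every bar, and the share of Kcna2 grows with the coding length.

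Kcna1 also stood first among 26 listed pore genes of voltage-gated potassium channels, and its lower library exceeded both libraries of each of the others per kilobase of exon. Kcna4 took place 8 and Kcna2 place 10, but per kilobase of coding sequence Kcna2 took place 3 (108 and 72.2 CPM per kilobase) and Kcna4 place 10 (26.4 and 37.1). Kcnc1, which encodes a fast channel of the Kv3 family, lay between them by exon length at 13.2 and 10.5 CPM per kilobase, and the libraries did not separate it from either. Kcna6 held place 15 and Kcna3 place 20. With the longest transcript, the longest transcript with a RefSeq match, or the coding length in place of the exon union, Kcna1 kept place 1. The 5 Kv1 members together made up 33.3% of the summed per-kilobase level of these 26 genes in replicate 1 and 42.1% in replicate 2. The list does not hold every gene of this channel class, so places and shares hold within it only.

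**Figure D3:**
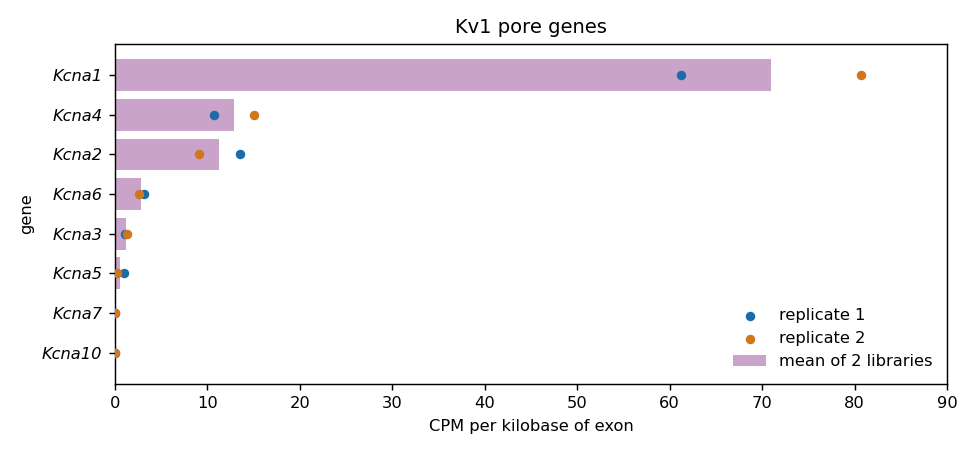
Level in CPM per kilobase of exon of the 8 Kv1 pore genes, as the mean of 2 libraries (bars) with each library as a point. Kcna1 (61.2 and 80.7) lies above all others, the libraries of Kcna4 and Kcna2 overlap, and Kcna7 and Kcna10 are at or near 0.

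Neighbouring Kv1 genes differed widely in level. Kcna1 lies on chromosome 6 between Kcna5, whose start is 111 kb away, and Kcna6, whose start is 94.3 kb away. The per-kilobase level of Kcna1 was 19.4 times that of Kcna6 in replicate 1 and 31.4 times in replicate 2, and 63.7 and 343 times that of Kcna5. Per kilobase of coding sequence the ratio to Kcna5 was 129 and 698. On chromosome 3, Kcna2 lies 65.0 kb from the start of Kcna3 and 81.9 kb from that of Kcna10. Kcna2 was at 13.5 and 9.08 CPM per kilobase, Kcna3 at 1.13 and 1.29, and Kcna10 at 0 counts. In each of these groups of genes, 1 gene held most of the level.

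**Figure D4:**
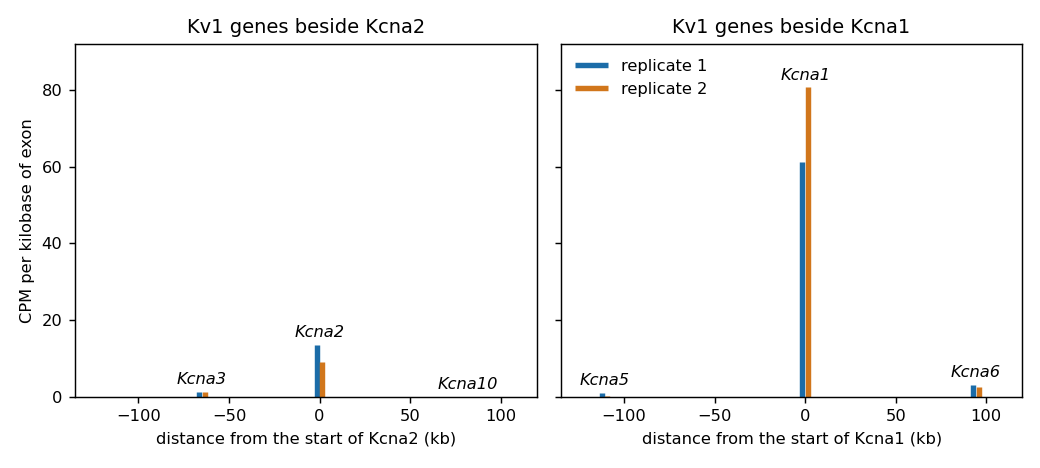
Level in CPM per kilobase of exon of the Kv1 genes near Kcna2 (left) and near Kcna1 (right), against the distance of their starts in kilobases, with 1 line for each library. In the right panel Kcna1 stands at 61.2 and 80.7 while Kcna6 is at 3.16 and 2.57, and in the left panel Kcna10 has no line because it had 0 counts.

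Kcnab2 was the main beta subunit gene. It encodes Kvbeta2, which aids the transport of Kv1 channels to the axon and lacks the inactivating N-terminus of Kvbeta1, and lies on chromosome 4 (152390742 to 152477871, minus strand). Its level was 318 CPM in replicate 1 and 248 CPM in replicate 2 (283 ± 49.7 CPM). Kcnab1, the gene of Kvbeta1, which confers fast inactivation on Kv1 channels, lies on chromosome 3 (65109384 to 65378223, plus strand) and was at 114 and 90.8 CPM (102 ± 16.4 CPM). Kcnab3, the gene of Kvbeta3, on chromosome 11 (69326258 to 69333042, plus strand), was at 5.78 and 6.85 CPM (6.31 ± 0.754 CPM). Kcnab2 and Kcnab1 were lower in replicate 2.

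Per kilobase of exon, Kcnab2 was at 57.0 and 44.4 CPM, Kcnab1 at 13.3 and 10.6, and Kcnab3 at 2.02 and 2.39. The share of Kcnab2 in their sum was 78.9% and 77.4%, that of Kcnab1 18.4% in both, and that of Kcnab3 2.79% and 4.17%. The ratio of Kcnab2 to Kcnab1 on this scale was 4.30 in replicate 1 and 4.20 in replicate 2. With the longest transcripts it was 3.12 and 3.05, and with the longest RefSeq-matched transcripts 2.31 and 2.26, so Kcnab2 led with each. The summed beta level was 0.806 times the summed Kv1 pore level in replicate 1 and 0.528 times in replicate 2, and 1.10 and 0.782 times per kilobase of coding sequence. Counts of a gene do not separate its transcripts, so the share of Kcnab1 or Kcnab2 forms that start at other promoters was not resolved.

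Lgi1 had the most counts of all members. Its gene lies on chromosome 19 (38264536 to 38312214, plus strand), and its level was 540.0 CPM in replicate 1 and 471 CPM in replicate 2 (506 ± 48.7 CPM), rank 258 of all symbols. Adam22, on chromosome 5 (8072352 to 8368160, minus strand), was at 212 and 203 CPM (208 ± 6.44 CPM), from 6651 counts in each library. On CPM with no further scaling of the totals, it was the member with the smallest spread, with a coefficient of variation of 3.10%. Those of the others ran from 9.43% (Kcna3) to 27.9% (Kcna2). The ratios on scaled totals, given below, order these other members differently. Per kilobase of exon, Lgi1 was at 47.6 and 41.5 CPM and Adam22 at 14.8 and 14.2, at a ratio of 3.21 and 2.93.

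Of the other genes of this ligand family, Lgi3 was next, at 45.2 and 31.9 CPM (38.6 ± 9.37 CPM). Lgi2 (62 and 49 counts) and Lgi4, which acts in peripheral myelination (19 and 21 counts), were near or below 2 CPM. Per kilobase of exon Lgi1 was 4.10 and 5.06 times Lgi3, and per kilobase of coding sequence 11.8 and 14.5 times. Among the receptors, Adam23 stood at 84.8 and 50.5 CPM (67.7 ± 24.3 CPM) and Adam11, which is known to place Kv1 channels at cerebellar terminals, at 36.7 and 18.1 CPM (27.4 ± 13.2 CPM). Per kilobase of exon Adam22 was 3.13 and 5.03 times Adam23, and 1.74 and 2.80 times with the longest transcripts. Adam23 was 0.732 and 0.883 times Adam11 per kilobase of exon, but 1.84 and 2.21 times with the longest transcripts. The order of Adam23 and Adam11 thus turned with the length used. Adam22 led the receptors in both libraries, and its distance from Adam23 was larger in replicate 2.

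Scaffold and adhesion genes linked to Kv1 channels were all detected (8 of 8). The highest per kilobase of exon were the membrane-associated guanylate kinase genes Dlg3 (32.9 and 37.6 CPM per kilobase), Dlg2 (34.5 and 31.6), which encodes PSD-93, and Dlg4 (27.9 and 21.8), which encodes PSD-95. Dlg1 was lower (5.13 and 4.67 CPM per kilobase). Ank3, the organiser of the axon initial segment, was at 572 and 711 CPM, or 16.4 and 20.4 CPM per kilobase. The order of Ank3 and the Dlg genes was read with the exon union only and depends on the length used. For Ank3 the union has 34838 bases and the longest transcript 9963, but for Dlg3 they have 5844 and 5017. The juxtaparanodal adhesion genes were low: Cntnap2 was at 2.49 and 1.95 CPM per kilobase (798 and 655 counts), and Cntn2, found in oligodendrocytes as well as axons, at 1.06 and 0.818 CPM per kilobase (309 and 249 counts). Epb41l3, listed as Epb4.1l3, was at 57.2 and 52.3 CPM, or 4.80 and 4.39 CPM per kilobase. Adarb1, which encodes the enzyme that edits Kcna1 RNA, was at 117 and 120 CPM, and editing itself cannot be read from counts.

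Over the 10 members, the order by CPM per kilobase of exon was Kcna1, Kcnab2, Lgi1, Adam22, Kcna4, Kcnab1, Kcna2, Kcna6, Kcnab3 and Kcna3. The 2 libraries of Kcnab2 and Lgi1 overlapped, as did those of each pair of neighbours from Adam22 to Kcna2. Kcna1 and Kcnab2 were apart on this scale by a small margin, 61.2 against 57.0 CPM per kilobase at the nearest libraries, and overlapped with the longest transcripts. Per kilobase of coding sequence Lgi1 was first (302 ± 29.1) and Kcna1 in place 3 (228 ± 44.5). Kcna6, Kcnab3 and Kcna3 were the last with every length.

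The libraries were then compared by the log2 ratio of replicate 2 to replicate 1, on TMM-scaled totals with a prior count of 2. Since both belong to 1 group, this measures the spread between replicates. Of the 8 members with a mean of at least 10 CPM, none was 1.5-fold higher or lower in replicate 2. Among all 8442 genes at that level, 9.44% were 1.5-fold higher and 7.12% lower. In 5 of the 8 members the ratio lay below 0, against 47.2% of all genes, and the median was -0.15 against 0.03 over all genes.

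Members moved in opposite directions between the libraries. Kcna1 had a log2 ratio of 0.49 (95% counting interval 0.45 to 0.53) and Kcna4 of 0.58 (0.49 to 0.68), while Kcna2 was at -0.48 (-0.55 to -0.42). The count ratio of Kcna1 to Kcna2, which needs no scaling of totals, was 1.81 in replicate 1 and 3.57 in replicate 2, a change of 1.97-fold (95% counting interval 1.87 to 2.07). The ratio of Kcna1 to Kcna4 was 5.64 and 5.30, a change of 0.938-fold, whose interval began at 0.876 and just included no change. Kcna1 and Kcna4 were thus both higher in replicate 2, and Kcna2 was lower, beyond counting error.

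Kcnab1 (-0.24, interval -0.31 to -0.17) and Kcnab2 (-0.27, interval -0.31 to -0.23) were both lower in replicate 2, and their count ratio of 2.79 and 2.73 changed by 0.978-fold (0.924 to 1.04). Kcna6 was at -0.20 (-0.38 to -0.03) and Lgi1 at -0.10 (-0.14 to -0.07). The interval of Adam22 included 0 (0.03, interval -0.02 to 0.08). Kcna3 and Kcnab3, under 10 CPM, had log2 ratios of 0.28 (-0.20 to 0.78) and 0.33 (0.05 to 0.63). These intervals hold counting error only, and with 2 libraries the differences cannot be set against a spread of their own.

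**Figure D5:**
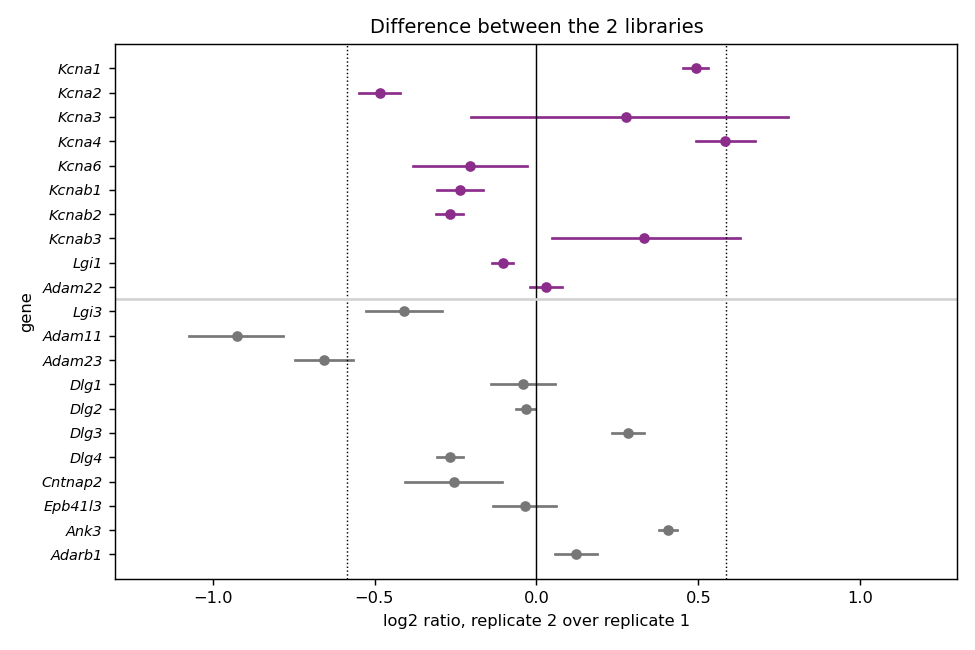
Log2 ratio of replicate 2 to replicate 1 on TMM-scaled totals for the 10 members (purple) and for the listed partner genes with a mean of at least 10 CPM (grey), with 95% counting intervals and dotted lines at 1.5-fold. Kcna1 and Kcna4 lie to the right, Kcna2 to the left, Kcna4 lies at the dotted line without passing it, and Adam11 and Adam23 lie past the line on the left.

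Of the 19 listed voltage-gated potassium channel pore genes at 10 CPM or more, 16 were lower in replicate 2. The median log2 ratio of the 19 was -0.24, and 47.2% of all genes at that level were lower. The 3 that were higher were Kcna1, Kcna4 and Kcnc4, which encodes the fast-inactivating Kv3.4 and was named after its values were seen (83.1 and 116 CPM, log2 ratio 0.57). Of the 11 listed partner genes at that level, 8 were lower in replicate 2. Past 1.5-fold were 2, both lower, as were 7.12% of all genes: Adam11 (log2 ratio -0.93) and Adam23 (-0.66). Adam22, which belongs to the same receptor family, had a log2 ratio of 0.03. Between the same libraries the summed markers of mossy cells, CA1 cells, CA3 cells and oligodendrocytes were lower in replicate 2, and those of interneurons, astrocytes, oligodendrocyte precursors and endothelial cells higher, by the values given above. Members of a list did not all follow its sum: among interneuron markers Gad2 went from 19.7 to 42.8 CPM, but Sst from 3.16 to 2.17 CPM and Lhx6 from 2.14 to 0.734 CPM. Among astrocyte markers Sox9 went from 10.4 to 27.8 CPM, but Aqp4 from 16.8 to 14.3 CPM. The part of these cells in the differences between the libraries was not tested.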

How the data were processed

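The deposited files hold raw counts per gene symbol, made by the authors. STAR 2.0.0e, HTSeq and the build mm10 are named per the submitters' processing notes. No source used here gives the annotation or the strand setting. HTSeq's summary lines and the empty line unknown were left out of the totals, and 65.0% and 64.9% of counts lay on gene lines.

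Levels are CPM (counts per 1000000 counts on gene lines), with mean ± SD over 2 libraries. Lengths, positions and sequences come from GENCODE M21 (GRCm38, the same assembly as mm10). Symbols matched to 1 gene there numbered 23848 of 32531, with Epb4.1l3 found through RefSeq synonyms. Coding sequences were taken as the longest open reading frame and aligned with Biopython 1.88. TMM factors come from edgeR 4.0.16 and the alternative size factors from DESeq2 1.42.0. Counting intervals are exact (Clopper-Pearson) for single genes and normal on the log scale for ratios of 2 genes, both at 95%. A single group allows no test between groups, so no p-values were computed. The ratio formula alone was tried on simulated counts scaled by their own totals, which tests neither TMM scaling nor the counting intervals.

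All members and the genes of the partner lists are named, and other channel genes only to place the members. Members and lists were chosen with earlier results of these data known. The list of partner genes holds 17 symbols. Genes with a similar pattern were not sought, since 2 libraries give none. Some other channel genes of the ordering are not reported here by name.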

Additional observations from a re-analysis of the deposited data

How the results depend on the processing

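Of 172 values recomputed under another setting, 118 stayed within the allowance (the SD between the libraries, the counting error of log2 ratios, or 1.5 times for counts), 53 moved beyond it and 1 reversed. Leaving out either replicate moves a mean of 2 by less than their SD. Those values are all among the 118 and say nothing about stability. Of the 30 log2 ratios, which hold none of them, 23 stayed, 6 moved and 1 reversed. The log2 ratio of Adam22 reversed to -0.063 with library totals alone, a scaling that shifted the median of all genes to -0.06 from 0.03 and that of the members to -0.25 from -0.15. The number of members 1.5-fold higher in replicate 2 became 1 with DESeq2 size factors, since Kcna4 lies at the limit. The share of Kcna1 among pore subunits was 62.8% with coding length and 60.8% with no length correction. The share of Kcnab2 among beta subunits was 73.5% with the longest transcript, 67.9% with the longest RefSeq-matched transcript (a length chosen after seeing the data), 73.2% with coding length and 72.2% with no length correction. Of 30 per-kilobase levels with another length, 20 moved. With no filter on low levels, 2768 genes were 1.5-fold higher and 3081 lower, against 797 and 601 at 10 CPM. At a limit of 10 CPM, 8 of 10 members were detected. Depth limits the ratios of the genes with few counts, such as Kcna3, Kcnab3, Kcna5, Lgi2 and Lgi4.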
